A study of Mus musculus with 8 samples.

Results

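The genes described here build ribosomes. They are 32 named genes of ribosome biogenesis and the nucleolus, from the enzymes that modify ribosomal RNA to the assembly factors of both subunits, and 30 of them were measured among 13341 tested genes of the mouse limb bud. Each gene was read from the probe set that carries its symbol alone and has the highest mean log2(intensity + 16), where intensity is the deposited array signal. Npm3 has no probe set under its name in the annotation used, and the probe set of Mrto4 is shared with other gene symbols, so these 2 genes have no value here. All 30 measured genes passed the filter on low signal, which asks for a value above the 40th percentile of the array in at least 4 of 8 columns.

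The cells came from limb buds of E10.5 embryos that carried 1 Shhgfpcre allele, which places green fluorescent protein (GFP) and Cre recombinase under the control of the Sonic hedgehog gene. The GFP-positive fraction of the sort holds the zone of polarizing activity (ZPA), the posterior signalling centre of the limb, and the GFP-negative rest of the limb is called non-ZPA. Both groups carried the allele, and which limbs were used or how many embryos were pooled is not given in the sources used here. The labels list 4 samples of each kind, but ZPA replicates 1 and 2 hold the same values to within 0.5 units and count once as ZPA array 1+2, which leaves 3 ZPA and 4 non-ZPA arrays. Nothing states that the samples came from separate litters, so p-values here measure only how far these samples vary, and that variation may be technical. Title numbers and recorded scan days split the arrays into run 1 (ZPA 1+2, non-ZPA 1 and 2) and run 2 (replicates 3 and 4 of both groups).

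Ribosome production starts in the nucleolus, where RNA polymerase I transcribes a long precursor of ribosomal RNA. Small nucleolar ribonucleoproteins (snoRNPs) of the box C/D kind methylate this precursor and those of the box H/ACA kind turn some uridines into pseudouridine, while large assemblies of processing factors cut it and fold it with ribosomal proteins into the 40S and 60S subunits. The pathway takes much of the energy of a growing cell, and the Myc family of transcription factors is known to raise the expression of many of its genes, binding the E-box sequence. In limb buds Mycn is the Myc family member best known for growth of the mesenchyme.

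Because of that known link the E-box CACGTG, which reads the same on both strands, was looked for in the promoter windows that RefSeq (build GRCm38.p6) gives for 26 of the 32 genes. A window covers 250 bases before and 50 bases after a transcription start. The motif stood in the windows of 3 of these 26 genes (11.5%), in 21 of 116 other ribosome biogenesis genes (18.1%) and in 8.09% of the 27025 genes with a window. The 3 sites are printed 5′ to 3′ with 12 bases on each side and the motif in capitals, since they are the only matches in the set. Nop2 lies at chr6:125131811-125131840, Pes1 at chr11:3963965-3963994 and Wdr43 at chr17:71616220-71616249, all on the plus strand.
Nop2: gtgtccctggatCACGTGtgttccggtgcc
Pes1: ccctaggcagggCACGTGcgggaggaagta
Wdr43: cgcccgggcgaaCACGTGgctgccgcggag

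In Nop2 the motif starts 60 bases before the transcription start, and in Pes1 and Wdr43 it starts at base 3 and base 18 of the transcript. Bases before the start were to be shown whole for genes with a window whose ZPA arrays all lay above all non-ZPA arrays. They also had to overlap no annotated gene. Bysl, Nip7 and Nop56 met only the first condition, and Nop2 met both. Nop2 also had the largest log2 difference between ZPA and non-ZPA of the genes with a window. Its 250 bases follow (chr6:125131633-125131882, GRCm38.p6, plus strand, motif in capitals).
Nop2: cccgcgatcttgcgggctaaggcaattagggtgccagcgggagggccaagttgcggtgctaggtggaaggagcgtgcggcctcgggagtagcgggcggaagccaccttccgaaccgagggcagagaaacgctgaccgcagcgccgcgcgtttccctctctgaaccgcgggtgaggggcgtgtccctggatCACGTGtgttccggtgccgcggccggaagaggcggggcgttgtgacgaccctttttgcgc
Of the measured genes with a window, the 3 that hold the motif had a median log2 difference of 0.13 and the 21 without it one of 0.14. Gnl2, Npm1, Fbl, Bop1, Rrs1 and Rrp12 were not among the genes with a window.

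The question the design puts to these genes is whether cells of the signalling centre express them at another level than the rest of the limb. Of the 30 genes, Gnl2 and Npm1 were higher in ZPA cells past the test (limma, Benjamini-Hochberg adjusted p under 0.05) and 0 were lower, where 0.427% of all tested genes were called higher and 2.02% lower. At an unadjusted p under 0.05 stood 6 genes, all higher, against 7.58% of all genes higher and 11.7% lower. On the probe sets used, the same 6 genes, Gnl2, Npm1, Nop2, Bysl, Nip7 and Nop56, had no overlap between the groups with ZPA on top. The count with ZPA below was 0, and the shares of all genes were 7.77% and 10.6%. The non-overlapping genes were 5 higher and 1 lower with quantile normalization, 3 higher and 2 lower with each array centred on its median, and 9 higher and 0 lower with the mean of all probe sets. The shares of all genes with these settings were not counted, so these counts cannot be set against them. The log2 difference, ZPA minus non-ZPA, lay above 0 for 20 of the 30, against 49.7% of all genes. Its median was 0.23 over the 30 genes and -0.0037 over all tested genes, and it ran from -0.76 for Ubtf to 1.97 for Gnl2. When each array was centred on its median the set's median was -0.027, against -0.26 over all tested genes.

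**Figure D1:**
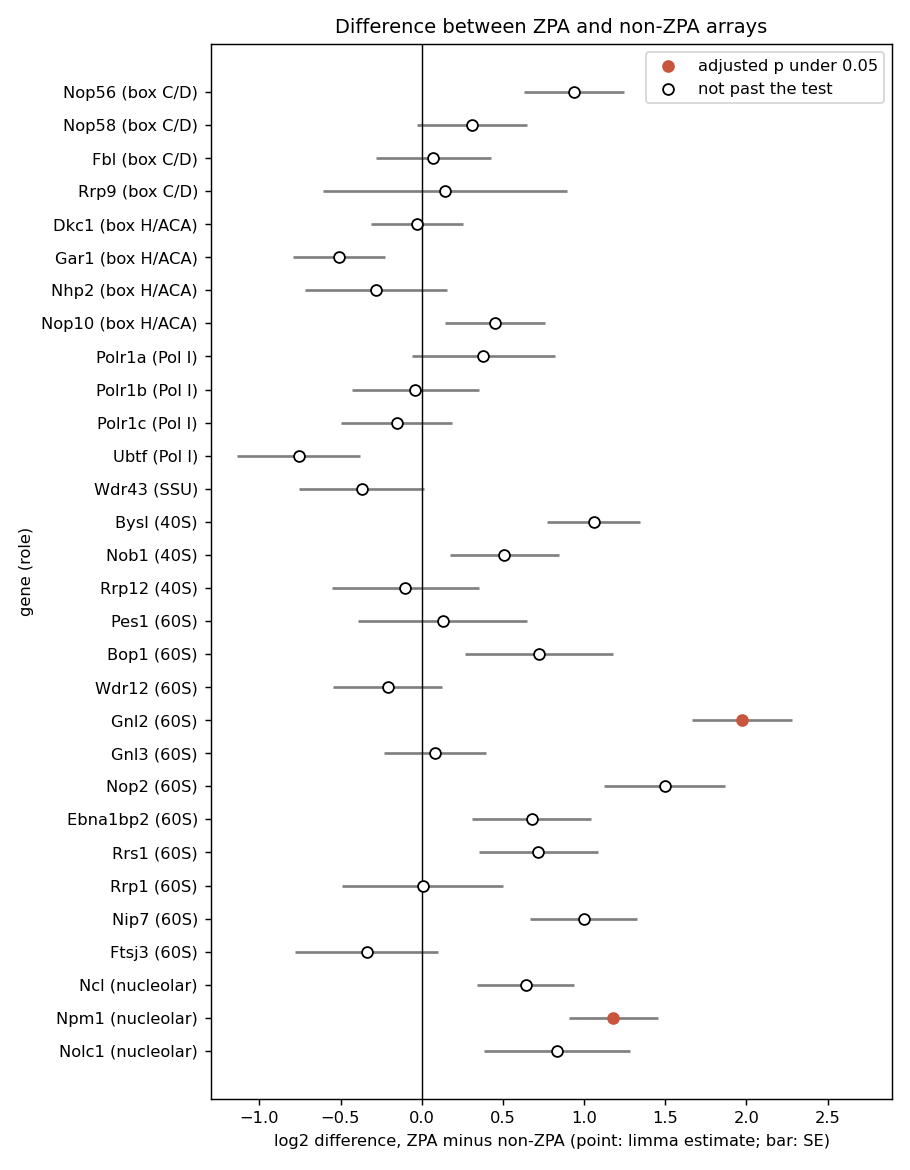
Log2 difference between ZPA and non-ZPA arrays (horizontal axis) for each of the 30 measured genes, grouped by role, with the limma estimate as a point and its SE as a bar. Gnl2 at 1.97 and Npm1 at 1.18 are the filled points past the test, and Ubtf at -0.76 is the lowest.

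The arrays differ in ways that touch these results. All 6 markers of limb mesenchyme, such as Prrx1 and Twist1, lay above the filter level on all 7 arrays, and Shh, which defined the sort, read 6226, 12148.5 and 11191 on the ZPA arrays, against 203 to 1085 on the non-ZPA arrays. The ratio of the 3′ over the 5′ probe set of Actb, which grows as RNA breaks down, stood at 21.6 for ZPA array 4 and between 2.04 and 5.37 for the rest. Bacterial spike-in signal was 10.3, 1.44 and 6.01 times the non-ZPA mean on ZPA arrays 1+2, 3 and 4. Summed leukocyte markers (4 genes) read 12292 on ZPA array 4, where Laptm5, Csf1r and Coro1a stood at 4995, 3685 and 3475, against 598 to 1535 on every other array, while the defining marker Ptprc read 136 there and 40.3 to 165 elsewhere. Summed erythroid markers (6 genes) ran from 18363 to 58178 on ZPA arrays and from 37344 to 54103 on non-ZPA arrays. The highest sum, on ZPA array 4, was mostly Hbb-y at 45991, while Hba-x, Slc4a1 and Alas2 were lower on that array than on every non-ZPA array. The GFP-negative sort also holds more muscle precursor signal (156 to 338 in ZPA, 867 to 3054 in non-ZPA cells, summed over 4 genes). Its summed surface ectoderm signal was higher too (669 to 1577 in ZPA, 3024 to 6385 in non-ZPA cells, 6 genes). In non-ZPA cells the ectoderm sum was mostly Epcam and Dsp, and Cdh1 and Krt8 overlapped between the groups. Endothelial markers (5 genes) summed to 410 to 1216 in ZPA and 528 to 1893 in non-ZPA cells, and neural crest markers (2 genes) to 245 to 500 in ZPA and 354 to 595 in non-ZPA cells. Of the defining markers, Pecam1 (endothelium) was under the filter level on all 7 arrays and Myf5 (muscle) on all 3 ZPA arrays, and no marker was at 0. The part of any of these in the results was not tested. In sorted bulk samples, fewer cells of a type and less RNA per cell cannot be told apart.

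The gene with the largest log2 difference of the 30, Gnl2, is a factor of the 60S subunit. It encodes a nucleolar GTPase that acts late in 60S assembly, as its yeast counterpart Nog2 does. Its intensity was 3198, 2325 and 3960.1 on ZPA arrays 1+2, 3 and 4, against 659, 848, 728 and 884 on non-ZPA arrays 1 to 4. All 3 ZPA arrays lay far above all 4 non-ZPA arrays, and the mean was 3161 ± 818 in ZPA cells (SD, n = 3) and 779.8 ± 104 in non-ZPA cells (SD, n = 4). The log2 difference was 1.97 ± 0.31 (SE), a 3.93-fold rise (limma adjusted p = 0.00653), and it was 2.07 within run 1 and 1.90 within run 2. Another probe set of Gnl2 also had no overlap, with 1322, 1509.9 and 1304 on ZPA arrays 1+2, 3 and 4, against 412, 758, 764 and 939 on non-ZPA arrays 1 to 4. Its log2 difference of 0.98 did not pass when every probe set was tested (adjusted p = 0.156).

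Gnl3, the nucleostemin gene and a relative of Gnl2 in the same GTPase family, overlapped between the groups. It read 5057, 7504 and 8394 on ZPA arrays 1+2, 3 and 4, against 5265, 4962, 7800.3 and 8509.5 on non-ZPA arrays 1 to 4, and the non-ZPA range enclosed the ZPA range. The log2 difference was 0.082 ± 0.32 (adjusted p = 0.922). In both groups the arrays of run 2 were higher than those of run 1.

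Nop2, a methyltransferase of the large ribosomal RNA, read 897, 1326 and 2291 on ZPA arrays 1+2, 3 and 4, against 458, 386, 703 and 445 on non-ZPA arrays 1 to 4. The lowest ZPA array was above the highest non-ZPA array, non-ZPA 3. Its log2 difference of 1.50 ± 0.38 did not pass (adjusted p = 0.0579), and it passed once run was added to the fit as a block (log2 difference 1.39 ± 0.34, adjusted p = 0.0423). Nip7, a factor of 60S assembly and of precursor cleavage, read 2594, 4180.4 and 2685 on ZPA arrays 1+2, 3 and 4, against 1215, 1186, 1868 and 2053 on non-ZPA arrays 1 to 4, without overlap. Its log2 difference was 0.997 ± 0.33 (adjusted p = 0.122).

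The PeBoW complex of Pes1, Bop1 and Wdr12, which is needed to process the 5.8S and 28S parts of the precursor, was uneven over the ZPA arrays. Pes1 read 492, 2769 and 2371 on ZPA arrays 1+2, 3 and 4, against 1099, 1552, 1047 and 1889 on non-ZPA arrays 1 to 4. ZPA array 1+2 was the lowest of all 7 arrays and ZPA arrays 3 and 4 were the highest. Bop1 likewise had its lowest and its 2 highest arrays in ZPA cells, with 670.1, 1887 and 3321 on ZPA arrays 1+2, 3 and 4, against 1042, 842, 1114 and 922 on non-ZPA arrays 1 to 4. Wdr12 read 638, 1299 and 819.8 on ZPA arrays 1+2, 3 and 4, against 961, 822, 1062 and 1283 on non-ZPA arrays 1 to 4, and the groups overlapped. Their log2 differences over all arrays were 0.13 ± 0.52, 0.72 ± 0.46 and -0.21 ± 0.33, none past the test (adjusted p = 0.926, 0.420 and 0.787).

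Among the remaining 60S factors, Ebna1bp2 (Ebp2 in yeast) read 1989, 5248 and 4067 on ZPA arrays 1+2, 3 and 4, against 2145, 1798, 1954 and 2976 on non-ZPA arrays 1 to 4. Only ZPA arrays 3 and 4 exceeded all non-ZPA arrays. Rrp1, another nucleolar 60S factor, read 1496, 4557 and 8036 on ZPA arrays 1+2, 3 and 4, against 5102, 4575, 2355 and 3738 on non-ZPA arrays 1 to 4, so that ZPA cells held both the lowest and the highest array. Rrs1, which helps to bring the 5S particle to the large subunit in yeast, had its highest array in run 1, with 26322, 10285 and 9582 on ZPA arrays 1+2, 3 and 4, against 7029.7, 8004, 10752 and 8024 on non-ZPA arrays 1 to 4. There ZPA array 1+2 was the highest by far, on a probe set whose x suffix marks probes that can bind other transcripts. Ftsj3, the counterpart of the yeast methyltransferase Spb1, read 379, 1048 and 361 on ZPA arrays 1+2, 3 and 4, against 407, 689, 668 and 1058 on non-ZPA arrays 1 to 4, with overlap. Their log2 differences were 0.68 ± 0.37, 0.0061 ± 0.50, 0.72 ± 0.37 and -0.34 ± 0.44, none past the test (adjusted p from 0.313 to 0.998). In all, 1 of the 11 measured 60S genes of the set was past the test and their median log2 difference was 0.68.

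All 3 measured nucleolar phosphoprotein genes had a log2 difference above 0, and Npm1 passed the test. Npm1 encodes nucleophosmin, an abundant chaperone of histones and ribosomal particles that organises the granular part of the nucleolus. Its intensity was 44765, 33219 and 44897 on ZPA arrays 1+2, 3 and 4, against 13919, 18152, 18095 and 22393 on non-ZPA arrays 1 to 4. No ZPA array fell within the range of the non-ZPA arrays. The mean was 40960.3 ± 6705 in ZPA cells (SD, n = 3) and 18139.8 ± 3459.6 in non-ZPA cells (SD, n = 4), a 2.27-fold rise (log2 difference 1.18 ± 0.27, limma adjusted p = 0.0428). This call stood close to the threshold. Quantile normalization moved the log2 difference of Npm1 to 0.40 (adjusted p = 0.371), and the mean of its probe sets gave an adjusted p of 0.114. Its adjusted p was 0.0927 to 0.151 when 1 non-ZPA array was left out and 0.0632 without ZPA array 4. Npm1 has processed copies in the genome, and binding of their transcripts was not tested.

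Ncl, the gene of nucleolin, which binds nascent ribosomal RNA, read 13578, 22434 and 21369.8 on ZPA arrays 1+2, 3 and 4, against 13848, 12614, 8551 and 13780.3 on non-ZPA arrays 1 to 4. ZPA arrays 3 and 4 were the highest of the 7 and ZPA array 1+2 lay inside the non-ZPA range. Nolc1, or Nopp140, a partner of snoRNPs in the nucleolus and Cajal bodies, read 1453, 5471 and 5689.5 on ZPA arrays 1+2, 3 and 4, against 2220, 1456, 2103 and 2340.2 on non-ZPA arrays 1 to 4. Here ZPA array 1+2 was the lowest of all arrays, just under non-ZPA array 2. The log2 differences were 0.64 ± 0.30 for Ncl and 0.83 ± 0.45 for Nolc1 (adjusted p = 0.270 and 0.341).

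Of 3 genes of late 40S maturation, Bysl came nearest to the threshold. Bysl encodes a protein (Enp1 in yeast) that binds the 40S precursor. It read 1916, 1883 and 2130.3 on ZPA arrays 1+2, 3 and 4, against 1004, 794, 867 and 1122 on non-ZPA arrays 1 to 4. The ZPA arrays lay close together and above all non-ZPA arrays, at a log2 difference of 1.06 ± 0.29 (adjusted p = 0.0718). Nob1, the endonuclease that makes the final cut of 18S RNA, read 917, 1780 and 1634 on ZPA arrays 1+2, 3 and 4, against 923, 1045, 753 and 1224 on non-ZPA arrays 1 to 4. ZPA array 1+2 fell within the non-ZPA range and the other ZPA arrays above it. Rrp12, which takes part in export of the subunits in yeast, read 287, 485 and 1242 on ZPA arrays 1+2, 3 and 4, against 584, 415, 703 and 766 on non-ZPA arrays 1 to 4, lowest and highest in ZPA cells. Nob1 and Rrp12 had log2 differences of 0.51 ± 0.34 and -0.10 ± 0.45 (adjusted p = 0.445 and 0.936). Wdr43, a subunit of the small subunit (SSU) processome that acts on the nascent precursor, read 1246, 3397 and 2601 on ZPA arrays 1+2, 3 and 4, against 2321, 2165, 3936 and 3477 on non-ZPA arrays 1 to 4, again lowest on ZPA array 1+2, at a log2 difference of -0.37 ± 0.38 (adjusted p = 0.647).

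None of the 4 box C/D genes passed limma's test, and 1, Nop56, had an unadjusted p under 0.05. Nop56, a scaffold of the particle, read 5376, 6998 and 11089 on ZPA arrays 1+2, 3 and 4, against 4387, 3399, 3852 and 3985 on non-ZPA arrays 1 to 4, without overlap and at a log2 difference of 0.94 ± 0.31 (adjusted p = 0.121). Its partner Nop58 read 1646, 1942 and 1084 on ZPA arrays 1+2, 3 and 4, against 1351, 1549.5, 809 and 1292 on non-ZPA arrays 1 to 4, with overlap. Fbl, the gene of the methyltransferase fibrillarin, read 5028, 10306 and 11649 on ZPA arrays 1+2, 3 and 4, against 5836, 7916, 7966 and 11346 on non-ZPA arrays 1 to 4, also with overlap. Rrp9, a protein of the U3 particle that guides early cleavage of the precursor, was spread widely over the ZPA arrays, with 70.9, 1232 and 1239 on ZPA arrays 1+2, 3 and 4, against 386, 381, 559 and 501 on non-ZPA arrays 1 to 4. ZPA arrays 3 and 4 agreed closely and were above all non-ZPA arrays, while ZPA array 1+2 was below all of them and under its filter level of 91.9, the only such reading among the 30 genes. The log2 differences of Nop58, Fbl and Rrp9 were 0.31 ± 0.34, 0.072 ± 0.35 and 0.14 ± 0.75 (adjusted p from 0.664 to 0.944).

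None of the 4 box H/ACA genes and none of the 4 genes of RNA polymerase I transcription passed limma's test, and 0 had an unadjusted p under 0.05. In the H/ACA group the pseudouridine synthase gene Dkc1 read 6893, 6373 and 4288 on ZPA arrays 1+2, 3 and 4, against 5196, 5542, 6163 and 6601 on non-ZPA arrays 1 to 4, and the ZPA range enclosed the non-ZPA range. Gar1, a core protein of the particle, had its 2 lowest arrays in ZPA cells, with 7163, 7128 and 9768 on ZPA arrays 1+2, 3 and 4, against 14256, 10014, 9397 and 12141 on non-ZPA arrays 1 to 4. Nhp2 read 3111, 11556 and 12383 on ZPA arrays 1+2, 3 and 4, against 8533, 8033, 9252 and 11714 on non-ZPA arrays 1 to 4, with ZPA array 1+2 as the lowest array, and Nop10 read 8573, 11238 and 16506 on ZPA arrays 1+2, 3 and 4, against 6918, 7712, 10072 and 9849 on non-ZPA arrays 1 to 4, with ZPA arrays 3 and 4 as the highest. The log2 differences were -0.029 ± 0.28 for Dkc1, -0.51 ± 0.28 for Gar1, -0.28 ± 0.44 for Nhp2 and 0.45 ± 0.31 for Nop10, and the adjusted p-values ran from 0.351 to 0.971.

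For RNA polymerase I, the catalytic subunit gene Polr1a read 301, 809.8 and 1194 on ZPA arrays 1+2, 3 and 4, against 406, 484, 479 and 706 on non-ZPA arrays 1 to 4. The second largest subunit gene Polr1b read 393, 1178 and 857 on ZPA arrays 1+2, 3 and 4, against 1037, 716, 681 and 649 on non-ZPA arrays 1 to 4. Polr1c, whose product is shared with RNA polymerase III, read 3400.1, 7195 and 8690 on ZPA arrays 1+2, 3 and 4, against 6184, 5952, 6830.2 and 7772 on non-ZPA arrays 1 to 4. In all 3 of these genes ZPA array 1+2 was the lowest array of the 7 and at least 1 of ZPA arrays 3 and 4 the highest. Ubtf, the upstream binding factor that keeps ribosomal DNA open, had the lowest log2 difference of the set and read 1169, 1525 and 3347 on ZPA arrays 1+2, 3 and 4, against 2571, 2786, 4263 and 2952 on non-ZPA arrays 1 to 4. ZPA arrays 1+2 and 3 lay below all non-ZPA arrays and ZPA array 4 among them. The log2 differences were 0.38 ± 0.44, -0.039 ± 0.39, -0.16 ± 0.34 and -0.76 ± 0.38, in the same order, with adjusted p from 0.302 to 0.972.

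The recurring feature of the set was the split among the ZPA arrays. ZPA array 1+2 was the lowest of the 3 ZPA arrays for 22 of 30 genes (73.3%), against 37.6% of all tested genes, and the lowest of all 7 arrays for 14 of 30 (46.7%), against 24.8%. ZPA arrays 3 and 4 both exceeded every non-ZPA array for 15 of 30 genes (50%), against 17.8% of all genes. Taken per array, the median deviation of the 30 genes from their own means over the 7 arrays was -0.51, 0.47 and 0.55 on the log2 scale on ZPA arrays 1+2, 3 and 4, against -0.25, -0.24, -0.12 and 0.10 on non-ZPA arrays 1 to 4. Over all tested genes the same median lay between -0.031 and 0.096 on every array.

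**Figure D2:**
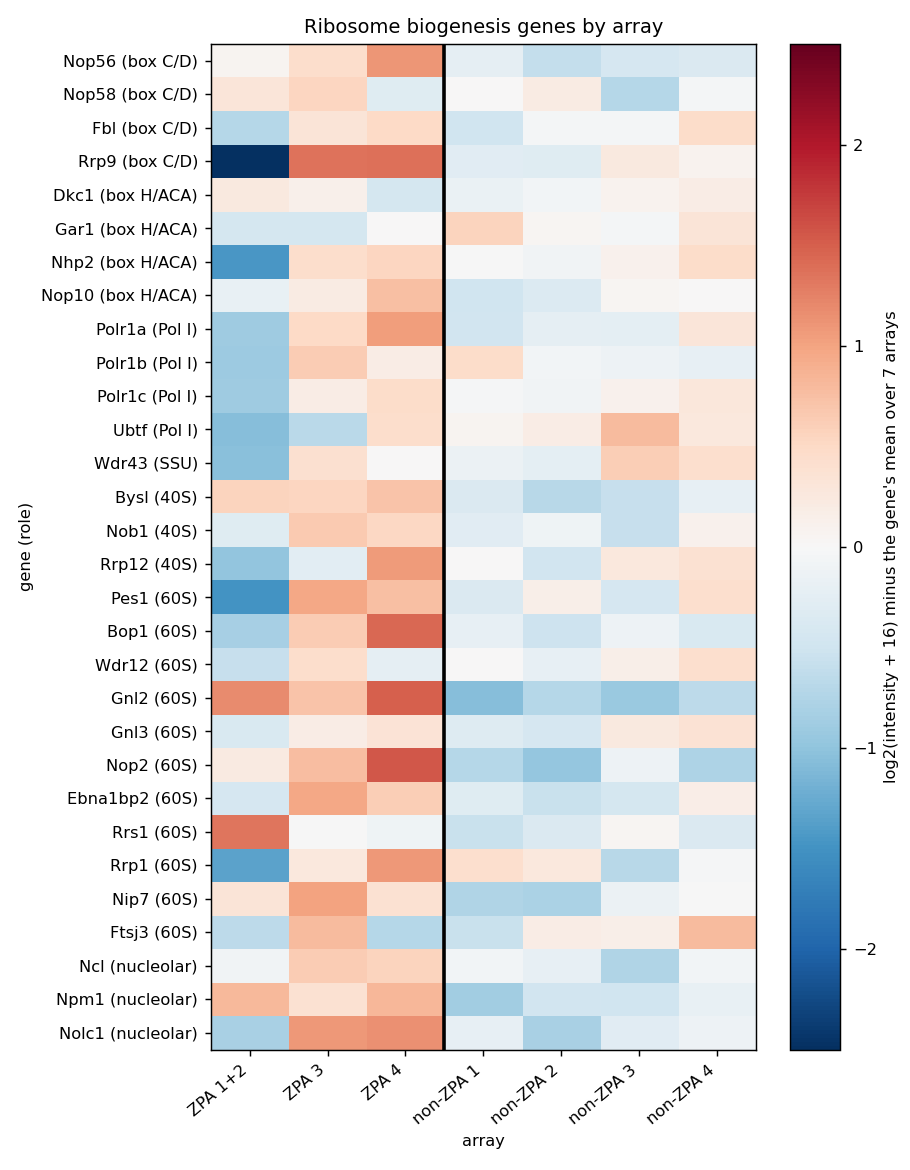
Level of each of the 30 genes (rows, with role) on each array (columns, ZPA left of the line), as log2(intensity + 16) minus the mean of the gene over the 7 arrays, red above and blue below that mean. ZPA array 1+2 is blue for most rows while ZPA arrays 3 and 4 are mostly red, and Gnl2, Npm1 and Bysl are red on all 3.

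Within run 1 the median log2 difference of the set, ZPA minus non-ZPA, was -0.37, and 12 of 30 genes lay above 0, against 49.2% of all tested genes. Within run 2 it was 0.66, and 23 of 30 lay above 0, against 49.4% of all tested genes. The median over all tested genes was -0.018 in run 1 and -0.012 in run 2. Run 1 has a single ZPA array, so the run and that array cannot be told apart. The interaction of run and group, fitted after the split among the ZPA arrays had been seen, restates that split and is given as a description. It was above 0, that is larger in run 2, for 23 of 30 genes, against 50.5% of all tested genes. The limma fit called it for Rrp9 and Rrp1, where it called 1.13% of all genes in this direction. Rrp1 had a log2 difference of -1.68 in run 1 and 1.02 in run 2. Rrp9 had 1.20 in run 2, and in run 1 it was lower in ZPA cells. The run 1 size is not interpreted, because the ZPA reading of 70.9 lies under the filter level of 91.9 of that array. Rrs1 leaned the other way, with 1.81 in run 1 and 0.096 in run 2.

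**Figure D3:**
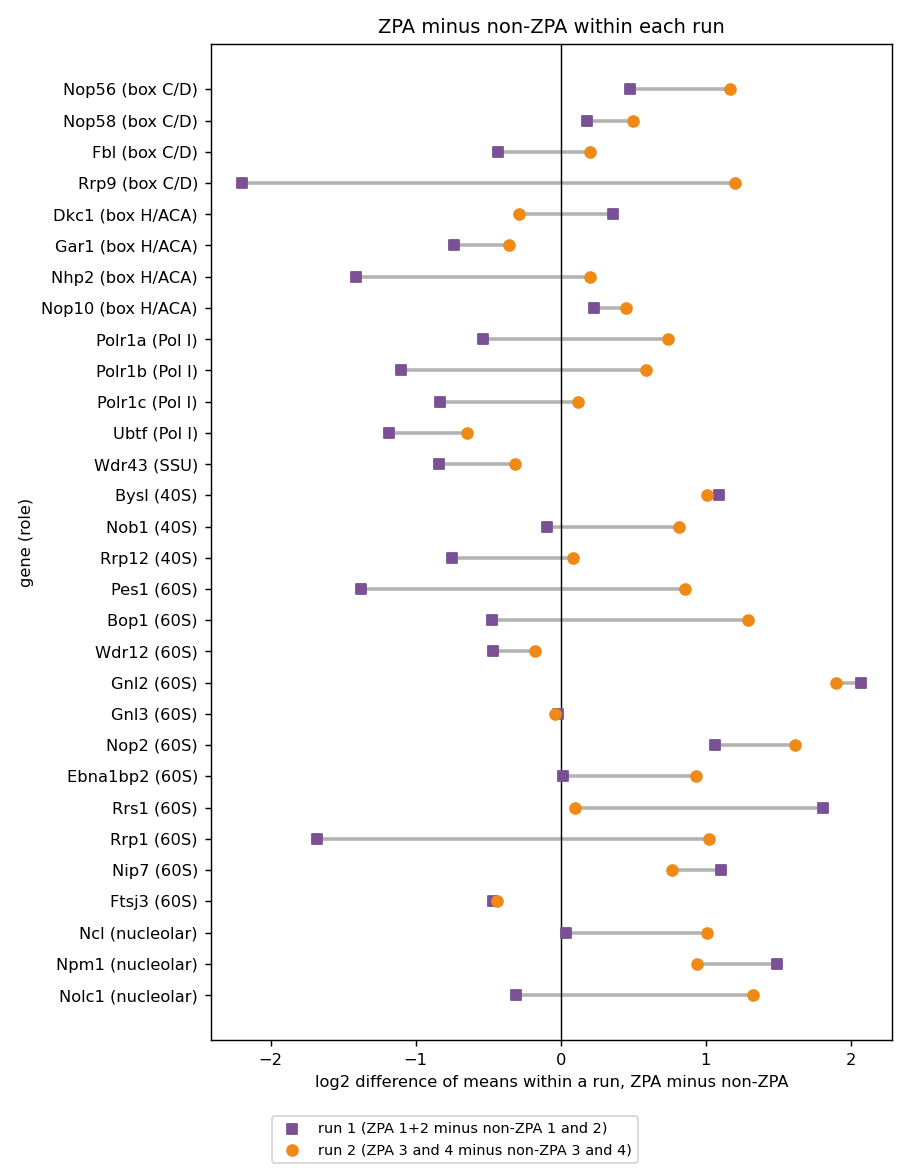
Log2 difference between ZPA and non-ZPA means (horizontal axis) within run 1 (squares, 1 ZPA against 2 non-ZPA arrays) and run 2 (circles, 2 against 2), joined for each of the 30 genes. The line crosses 0 for genes such as Rrp1, at -1.68 and 1.02, and stays right of it for Gnl2, at 2.07 and 1.90, while the run 1 point of Rrp9 rests on a reading under the filter level.

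With the run as a block, 3 of the 30 genes were higher past the test, Gnl2, Npm1 and Nop2, and 0 were lower, against 0.855% and 3.15% of all genes. When ZPA array 1+2 was left out, 11 of 30 genes were higher and 0 lower, against 5.17% higher and 7.76% lower of all genes. These 11 were Gnl2, Npm1, Nop2, Bysl, Nip7, Nop56, Nolc1, Bop1, Rrp9, Ebna1bp2 and Ncl. Leaving out that array moved Nolc1 to a log2 difference of 1.47 ± 0.26 (limma adjusted p = 0.00603) and Rrp9 to 1.42 ± 0.30 (adjusted p = 0.0118). The ZPA arrays of that fit were of run 2 only and the non-ZPA arrays of both runs, so run and group were partly mixed. In run 2 alone only Gnl2 was past the test, against 0.914% of all genes called higher. Without any 1 of the non-ZPA arrays or without ZPA array 4, Gnl2 alone was past the test, and without ZPA array 3 both Gnl2 and Npm1 were.

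Different probe sets of a gene did not always show the same difference. Of the 21 genes with several tested probe sets, 10 had 1 sign throughout and 11 had both. Among the genes without overlap on the probe set used, only Nop2 has no other tested one. The groups overlapped on the other probe set of Npm1 (log2 difference 0.90), Nop56 (0.65), Bysl (0.58) and Nip7 (-0.21), and did not on that of Gnl2. All 5 probe sets of Ncl lay above 0, from 0.53 to 1.53, the highest with non-ZPA array 1 under its filter level. All 3 of Polr1a did too, from 0.38 to 1.69, and the probe set in between held readings under the filter level. The 3 probe sets of Dkc1 had log2 differences of -0.029, -1.08 and 1.16, and the groups did not overlap on the last 2, in opposite directions. Bop1 had 0.72 on the probe set used, and on another one all 3 ZPA arrays were under the filter level and below the non-ZPA arrays, so no size is given. The 3 of Nolc1 gave 0.83, -0.21 and 2.998. On the third of these the intensity was 889, 736 and 1232 on ZPA arrays 1+2, 3 and 4, against 142, 139.6, 48.7 and 108 on non-ZPA arrays 1 to 4, and every ZPA array stood above every non-ZPA array, of which non-ZPA array 3 was under its filter level. In a fit over every probe set, 2 of the 57 that belong to these genes were called higher, this one of Nolc1 (adjusted p = 0.00379) and the first of Gnl2 (adjusted p = 0.00785), and 0 lower, against 0.381% and 1.36% of all probe sets. Npm1 then stood at an adjusted p of 0.0525.

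**Figure D4:**
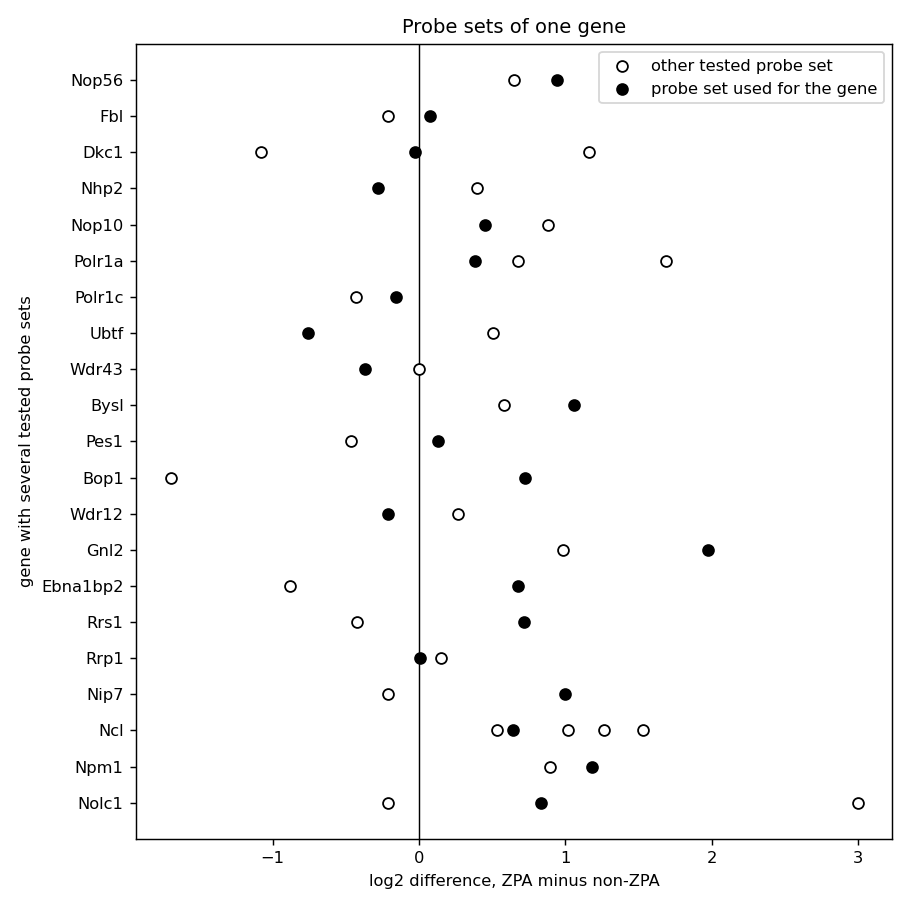
Log2 difference, ZPA minus non-ZPA (horizontal axis), of every tested probe set of the 21 genes that have several, with the probe set used for the gene filled. The open point of Nolc1 at 2.998, with non-ZPA array 3 under its filter level, is the highest. Genes such as Dkc1 and Rrs1 have points on both sides of 0.

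The rest of the pathway was read from lists by role that hold 143 further genes, 139 of them tested. None of the 139 passed limma's test in either direction, with 28 higher and 7 lower at an unadjusted p under 0.05, where 7.58% and 11.7% of all genes stood. Their median log2 difference was 0.27, 89 lay above 0, and the groups did not overlap for 17 genes with ZPA higher (12.2%) and 5 with ZPA lower (3.6%), against 7.77% and 10.6% of all genes. ZPA arrays 3 and 4 both exceeded every non-ZPA array for 56 of the 139 (40.3%), against 17.8% of all genes. Without ZPA array 1+2 the ZPA arrays left were of run 2 only. There 28 of the 139 were higher past the test (20.1%) and 2 lower, against 5.17% and 7.76% of all genes. The median difference of these genes was -0.073 in run 1 and 0.29 in run 2.

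By role, and with the genes of the set included, the list medians were 0.35 for 9 box C/D genes, -0.16 for 6 box H/ACA genes, 0.16 for 15 genes of RNA polymerase I and 0.15 for 42 of the SSU processome. They were 0.26 for 12 genes of 40S maturation, 0.34 for 59 of 60S assembly, 0.88 for 6 nucleolar phosphoproteins and chaperones and 0.30 for 20 of the exosome and RNase MRP, which trim the precursor. Of the genes outside the set with the highest level in each list, the assembly ATPases had log2 differences of -0.58 (Ruvbl1) and 0.35 (Ruvbl2), and the H/ACA assembly factors -0.45 (Naf1) and 0.70 (Shq1). The polymerase subunits Polr1d and Polr1h were at -0.60 and -0.058, and the processome factors Bms1 and Ngdn at 0.85 and -0.21. Tsr1 and Riok3, of the 40S list, were at 0.55 and 0.087, and Tex10 and Zfp622, of the 60S list, at 0.46 and 0.50. The probe sets of Polr1d, Ngdn and Zfp622 carry the same x suffix as that of Rrs1. Bms1 and Tex10, like Rrs1, were highest on ZPA array 1+2, at 72123 and 39662. Nop53 was at -0.69, Mybbp1a at 1.40, the exosome cofactor C1d at -0.96 and the exosome helicase Mtrex at 0.65. None of these 16 passed the test (adjusted p from 0.0782 for Mybbp1a to 0.952 for Polr1h). Mybbp1a, a nucleolar Myb-binding protein gene, did not overlap between the groups, with 4202, 5746 and 14239.7 on ZPA arrays 1+2, 3 and 4, against 3361, 2322, 2539.7 and 2469.8 on non-ZPA arrays 1 to 4.

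Riok2, a kinase of late 40S maturation, was chosen after its values were seen, because it was the 1 gene of the 139 to pass once run entered as a block (adjusted p = 0.0468). It read 4505, 2837 and 3245 on ZPA arrays 1+2, 3 and 4, against 427, 1626, 1229.7 and 1241 on non-ZPA arrays 1 to 4. The ZPA arrays were all above the non-ZPA arrays, at a log2 difference of 1.75 ± 0.43 (adjusted p = 0.0530).

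Among 11 genes of the Myc network, which regulates the pathway, 1 passed the test and was lower in ZPA cells. Of all tested genes 2.02% were called lower. Mycl, a Myc family member, read 587, 116 and 139 on ZPA arrays 1+2, 3 and 4, against 1403, 801, 864 and 1108 on non-ZPA arrays 1 to 4. All ZPA arrays lay below all non-ZPA arrays, at a log2 difference of -2.16 ± 0.49 (limma adjusted p = 0.0402). Mycn read 5767, 7584 and 3434 on ZPA arrays 1+2, 3 and 4, against 2676, 2714, 4619 and 4626 on non-ZPA arrays 1 to 4, with ZPA array 4 inside the non-ZPA range, at 0.59 ± 0.36 (adjusted p = 0.398). The call of Mycl was lost when ZPA array 3, ZPA array 4 or any 1 non-ZPA array was left out (adjusted p from 0.0875 to 0.120), and with the mean of its probe sets the log2 difference was -1.25 (adjusted p = 0.246). It was also lost with quantile normalization (limma adjusted p = 0.0675), without a variance trend (0.0892) and with ZPA replicates 1 and 2 counted separately (0.0587). With the mean of its probe sets Mycn stood at 1.65 (adjusted p = 0.0393). With run as a block 2 genes of the network were lower past the test, Mycl and the Myc antagonist gene Mxd1, which was chosen after its values were seen. Of all tested genes 3.15% were called lower in that fit. Mxd1 read 579, 271 and 537 on ZPA arrays 1+2, 3 and 4, against 1279, 1194, 1235 and 1054 on non-ZPA arrays 1 to 4. All its ZPA arrays lay below all non-ZPA arrays, at a log2 difference of -1.40 ± 0.34 (adjusted p = 0.0503, and 0.0434 with the block). Mxi1, another antagonist gene, had a log2 difference of -0.71 ± 0.32 (adjusted p = 0.251). The median of the 11 was -0.30.

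**Figure D5:**
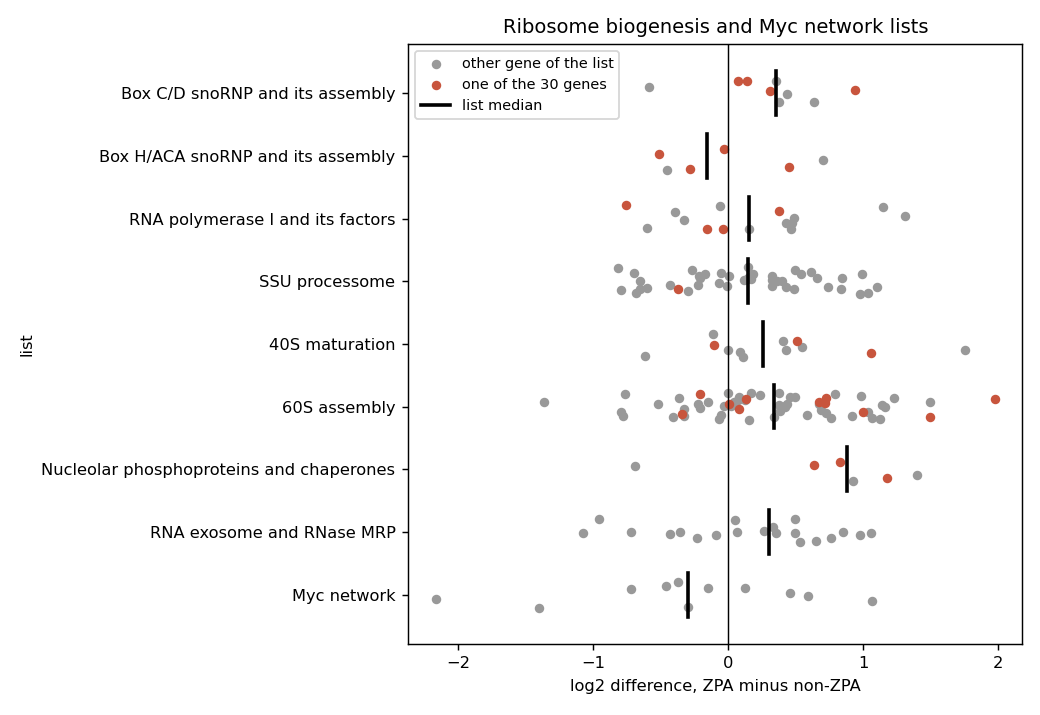
Log2 difference, ZPA minus non-ZPA (horizontal axis), of the tested genes in each ribosome biogenesis list and in the Myc network, with genes of the described set in red, other genes in grey and the list median as a black bar. The nucleolar phosphoproteins have the highest median, 0.88, and the Myc network the lowest, -0.30, with Mycl at -2.16 as the lowest gene.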

How the data were processed

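Gene expression was measured on Affymetrix Mouse430_2 arrays, with labelled RNA from sorted limb bud cells. The deposited values are probe set intensity on a linear scale, and the submitters' processing notes name GCOS 1.3 as the authors' software. ZPA replicates 1 and 2 were within 0.5 units of each other, against at least 11381 as the largest difference within any other pair, so their mean was used as 1 array (the file of replicate 2 held no scan record). Of 45101 probe sets, 34945 carry 1 gene symbol in the platform annotation, 932 several and 9160 none, and 64 are controls. Values were taken as log2(intensity + 16) without further normalization. Probe sets above the 40th percentile in 4 of 8 columns were kept and 13341 genes were compared by limma's lmFit and eBayes with a variance trend (limma 3.58.1, R 4.3.3), with Benjamini-Hochberg adjustment over all of them. The fit was checked on simulated data with the spread of each gene. It called 4.1% of simulated log2 differences of 1 and 47.5% of those of 2, and 5.05% of its calls were false. A gene not past the test can therefore still differ between the groups. Fold changes are on the log2(intensity + 16) scale, which understates those of dim genes.

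The 32 genes, the wider lists and the tests were chosen with earlier results of these data known. All 32 genes could be named. Of each wider list, genes past the test were named, or the 2 brightest outside the set where fewer than 2 passed. Cell type markers were summed as intensity. Alternatives changed the normalization, filter, pseudocount, probe set rule, blocks, runs, array weights, threshold and arrays left out. Testing every probe set, the interaction of run and group, the median relative to all genes and the wider lists with the run as a block were added after seeing the data. Promoter windows came from RefSeq, GRCm38.p6, matched by symbol.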

Additional observations from a re-analysis of the deposited data

Results flagged for a closer look

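The third probe set of Nolc1, outside the main measurement, carried a signal above the level of the non-ZPA arrays. Its intensity was 889, 736 and 1232 on ZPA arrays 1+2, 3 and 4, against 142, 139.6, 48.7 and 108 on non-ZPA arrays 1 to 4. The log2 difference of this probe set was 2.998 ± 0.41 (limma over all probe sets, adjusted p = 0.00379). This size rests in part on non-ZPA array 3, whose reading lay under its filter level of 63.3. The probe set used for Nolc1 had a log2 difference of 0.83 and the remaining one of -0.21. The cause of this disagreement was not tested. In none of the 30 non-ZPA groups of 4 arrays did a single array lie far from the others, where chance gives about 1 in 20, and the ZPA groups of 3 arrays were too small to be looked at this way.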

How the results depend on the processing

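Of the 2 calls in the set, the 1 of Gnl2 held under every alternative run. Npm1 dropped out, leaving a count of 1, with quantile normalization, median centring, no filter, the mean of all probe sets, no variance trend, the replicate block and run 2 alone. The count was 4 with a threshold of 0.10, against 1.6% of all tested genes called higher. It was 4 with ZPA replicates 1 and 2 counted separately, against 1.96%, and 8 with array weights, against 2.88%. All of these calls were higher in ZPA cells. No count is given for run 1 alone, where the spread of the lone ZPA array is taken from the non-ZPA arrays. Leaving out 1 array gave 1 to 11, with 11 without ZPA array 1+2, 2 without ZPA array 3 and 1 without any other array. The shares of all genes called higher were 5.17%, 0.802% and 0.0825% to 0.262% in these fits. The wider lists with the set included held 169 tested genes in the main fit. Their count of 2 was 1 with quantile normalization, median centring, no filter, the mean of all probe sets or no variance trend. That call was always higher, against 0.232% to 0.412% of all genes. It was 4 with the run as a block, 2 with the replicate block, 8 with ZPA replicates 1 and 2 counted separately, 8 in run 2 alone, 10 at a threshold of 0.10, 26 with array weights, 40 in run 1 alone and 1 to 41 without 1 array, highest without ZPA array 1+2. Groups did not overlap for 27 genes in run 1 (10 higher, 17 lower), 18 in run 2 (17 higher, 1 lower) and 6 to 15 without 1 array, where fewer arrays overlap less by construction. The shares of all genes were not counted for these subsets of arrays. The median log2 difference of the set was -0.37 in run 1, 0.66 in run 2 and 0.073 to 0.67 without 1 array, and relative to all genes -0.35, 0.68 and 0.063 to 0.68. The median was 0.080 with the mean of all probe sets, 0.10 with the run as a block, 0.071 with ZPA replicates 1 and 2 counted separately and 0.48 with array weights. With median centring, which shifts the median of all genes to -0.26, the set stood at -0.027. Of 1122 gene values under alternatives, 93 had another sign than the main value, over 27 genes that were not past the main test. With quantile normalization, Fbl was at -0.096, Polr1b at 0.034, Gnl3 at -0.022, Polr1h at 0.024, Bms1 at -0.075, Tex10 at -0.15. With median centring, Fbl was at -0.18, Rrp9 at -0.11, Pes1 at -0.12, Gnl3 at -0.17, Rrp1 at -0.25, Riok3 at -0.17. With the mean of all probe sets, Fbl was at -0.070, Dkc1 at 0.016, Nhp2 at 0.057, Pes1 at -0.17, Wdr12 at 0.029, Ebna1bp2 at -0.10, Ngdn at 0.14, Riok3 at -0.25, Mtrex at -0.063, and Bop1 was negative. With the run as a block, Fbl was at -0.051, Rrp9 at -0.16, Pes1 at -0.037, Gnl3 at -0.029, Rrp1 at -0.058. With the replicate block, Gnl3 was at -0.044. In run 1 alone, Fbl was at -0.43, Rrp9 at -2.20, Dkc1 at 0.36, Polr1a at -0.53, Nob1 at -0.097, Pes1 at -1.38, Bop1 at -0.47, Gnl3 at -0.015, Rrp1 at -1.68, Nolc1 at -0.31, Ruvbl2 at -0.43, Ngdn at 0.18, Tsr1 at -0.15, Riok3 at -0.41. In run 2 alone, Nhp2 was at 0.20, Polr1b at 0.58, Polr1c at 0.12, Rrp12 at 0.082, Gnl3 at -0.038, Tex10 at -0.061. With ZPA replicates 1 and 2 counted separately, Fbl was at -0.11, Rrp9 at -0.50, Dkc1 at 0.037, Pes1 at -0.26, Gnl3 at -0.027, Rrp1 at -0.33. With array weights, Dkc1 was at 0.062, Nhp2 at 0.17, Polr1b at 0.39, Polr1c at 0.067, Wdr43 at 0.080, Wdr12 at 0.17, Ftsj3 at 0.30, Polr1h at 0.36. No size is given for the mean of Bop1, which holds a probe set under the filter level. The value of Rrp9 in run 1 rests on a reading under the filter level, so its size is not interpreted. Other values of Rrp9 that include ZPA array 1+2 rest in part on the same reading. Without 1 array the log2 differences ran over these ranges: Nhp2 -0.63 to 0.37, Polr1b -0.37 to 0.40, Polr1c -0.43 to 0.25, Wdr43 -0.67 to 0.045, Rrp12 -0.66 to 0.36, Wdr12 -0.49 to 0.018, Ruvbl1 -0.96 to 0.016, Polr1h -0.35 to 0.25, Tex10 -0.012 to 0.76, Fbl -0.16 to 0.45, Rrp9 -0.50 to 1.42, Pes1 -0.32 to 0.91, Rrp1 -0.53 to 0.67, Riok3 -0.069 to 0.26, Dkc1 -0.16 to 0.18, Polr1a -0.033 to 0.93, Gnl3 -0.067 to 0.30. Correlations over genes between the deviations of same-numbered ZPA and non-ZPA arrays were small. They were 0.0094 and 0.078 for ZPA array 1+2 with non-ZPA arrays 1 and 2, and -0.020 and -0.0075 for numbers 3 and 4. Over all pairs of a ZPA and a non-ZPA array they ran from -0.10 to 0.078, and the numbers are not taken to pair the samples. With 7 arrays the number of arrays limits the precision, and no signal over background was given in the sources used here.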
